A study of Mus musculus with 2 samples.

Results

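In brown adipose tissue of mice, 148 of 4513 nuclei formed a small fibroblast group marked by Bmper and Smoc2. The tissue was profiled by single-nucleus RNA sequencing, in which each captured molecule carries a molecular identifier (UMI) and a barcode that names its droplet. The 148 members were chosen from barcodes with under 20% mitochondrially encoded UMIs. A member had at least 3 UMIs in all of Bmper, Smoc2, Gpm6b, Col15a1 and Ccbe1 together, from at least 2 of these 5 genes. This sum also had to exceed that of the 5 adventitial genes Pi16, Dpp4, Fbn1, Sema3c and Fndc1, and that of the 4 endothelial genes Ptprb, Flt1, Cyyr1 and Cdh5. The members were therefore picked on measured values of these nuclei, and their difference from other barcodes is given as a description, with no test.

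Both groups of animals were C57BL/6, an inbred laboratory strain. The group labelled 1cyc had its tissue collected 4 days after a transient and acute exposure to cold. The group labelled TN was housed at thermoneutrality, the ambient temperature at which a mouse needs no extra heat production. Nuclei of 5 mice were pooled for each group, sorted on DAPI, a DNA dye, and loaded as 1 droplet library per group, so the mouse behind a nucleus is not recorded. Cold history and library cannot be told apart, and no difference between 1cyc and TN has a replicate check.

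Fibroblasts of adipose tissue lie between the fat cells and around vessels, where they lay down matrix, and some of them can give rise to new adipocytes. Work on adipose tissue has separated an adventitial pool with Pi16 and Dpp4, found around vessels, from interstitial pools that lie among the adipocytes. Among the genes of the member rule, Bmper encodes a secreted protein that binds bone morphogenetic proteins (BMPs) and tunes their signalling. Smoc2 encodes a calcium-binding matricellular protein, Gpm6b a membrane glycoprotein of the proteolipid family, Col15a1 a collagen of the basement membrane zone, and Ccbe1 a secreted protein needed for the growth of lymphatic vessels.

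Bmper, the gene most members carried, lies at chr9:23223076-23485200 on the forward strand of mm10 (GENCODE M21), and Smoc2 at chr17:14279506-14404790 on the same strand. The 250 bases before the Bmper start, at chr9:23222826-23223075 on the forward strand (RefSeq, GRCm38.p6), are shown as the promoter of the gene that defines the group:

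Bmper: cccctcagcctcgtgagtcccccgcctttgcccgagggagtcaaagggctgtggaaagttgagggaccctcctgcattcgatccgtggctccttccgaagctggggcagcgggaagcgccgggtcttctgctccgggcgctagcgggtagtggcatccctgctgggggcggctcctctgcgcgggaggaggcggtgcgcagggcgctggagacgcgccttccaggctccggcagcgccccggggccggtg

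This stretch held no match to TGANTCA (the motif bound by AP-1, the Fos and Jun family) or TATAAA (the TATA box), searched on both strands. Among the 250-base stretches of 32851 promoters, 6.75% held the AP-1 letters and 12.4% the TATA letters. A missing match says only that these letters are not in this window.

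The 47 members of 1cyc held 56469 UMIs in all and the 101 members of TN held 149589. The median member had 1181 UMIs and 716 genes in 1cyc, and 1214 UMIs and 729 genes in TN. The upper quartile was 1501.5 UMIs in 1cyc and 1747 in TN, the lowest member had 371 in 1cyc and 503 in TN, and the highest had 2417 in 1cyc and 10573 in TN. Other barcodes were shallower by their median, at 528 UMIs in 1cyc and 794.5 in TN, and the lowest deposited barcode had 262 UMIs in 1cyc and 500 in TN. The median mitochondrially encoded share was 2.23% in members of 1cyc and 3.93% in members of TN. Of the TN members, 1 carried 8783 haemoglobin UMIs among its 10573, while the 1cyc members carried 5 haemoglobin UMIs together. The libraries shared 6 barcodes, none of them a member. All values below are sums over barcodes as counts per 1000000 UMIs (CPM), intervals are 95% exact intervals, and both intervals and floors cover counting error only.

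The 5 genes of the rule chose the members in both libraries, so their levels are given as a description. Bmper was at 1824 CPM in members of 1cyc (103 UMIs in 40 of 47 nuclei) and at 1678 CPM in members of TN (251 UMIs in 89 of 101 nuclei). Smoc2 was at 1080 CPM in 1cyc members and 876 CPM in TN members, and Col15a1 at 850 and 622 CPM in 1cyc and TN members. Gpm6b was at 584 and 528 CPM, and Ccbe1 at 514 and 435 CPM, again in 1cyc and TN members. The ratios of 1cyc over TN ran between 1.09 for Bmper and 1.37 for Col15a1, and the 5 genes summed to a ratio of 1.17 (1.01 to 1.35). TMM, a scaling by a trimmed mean of gene ratios, divides every ratio of 1cyc over TN by 1.23. This puts the ratios of Bmper, Gpm6b and Ccbe1 below 1. In all other barcodes Bmper was at 65.0 CPM in 1cyc and 89.6 CPM in TN. Bmper was seen in 85.1% of 1cyc members and 88.1% of TN members. As a background level, it was seen in 0 of 39 endothelial barcodes in 1cyc, which allows a share of up to 7.69% (3 counts of 39), and in 2.37% of 169 in TN, at a median of 857 UMIs in 1cyc and 1211 in TN. Both rules set the Bmper genes against the endothelial genes, so this contrast is fixed by the choice of barcodes.

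Most members passed the rule through a few UMIs. The summed count of the 5 genes had a median of 5 in both libraries and reached 15 in 1cyc and 17 in TN. It was at the limit of 3 in 13 members of 1cyc and 20 of TN. In 1cyc, 23 members had 2 of the 5 genes, 17 had 3, 5 had 4 and 2 had all of them. In TN, 35 had 2 of the genes, 43 had 3, 18 had 4 and 5 had all. Bmper and Smoc2 were seen together in 24 members of 1cyc and 63 of TN. Just outside the rule, 5 barcodes of 1cyc and 19 of TN had 2 UMIs from 2 genes, and 2 of 1cyc and 13 of TN had 3 or more UMIs from a single gene. Adventitial genes were as high as the Bmper set in 1 otherwise eligible barcode of 1cyc and 4 of TN, and endothelial genes in 0 of 1cyc and 1 of TN. Above the mitochondrial limit, 0 of 2275 barcodes of 1cyc and 0 of 84 of TN met the rule.

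**Figure D1:**
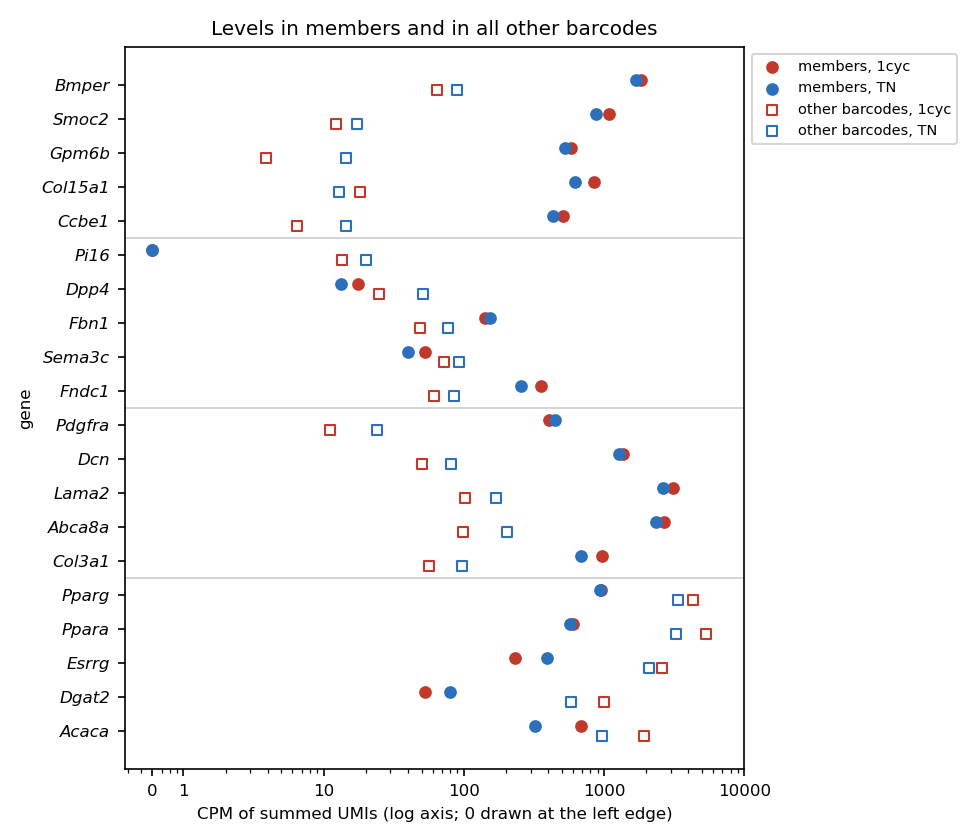
Levels in CPM of summed UMIs (log axis, 0 at the left edge) for members (filled circles) and all other barcodes (open squares) of 1cyc (red) and TN (blue); rows are the genes of the member rule, the adventitial genes, fibroblast markers and adipocyte genes. Members sit far right of other barcodes for Bmper through Ccbe1 and for the fibroblast markers, left of them for the adipocyte genes, and at 0 for Pi16 in both libraries.

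The members carried the transcripts of matrix-producing fibroblasts. Genes were compared where they had at least 30 UMIs over members and other barcodes in each library. Genes of the rule were kept in these counts, and all 5 of the Bmper set are among those higher by the choice of members. Of 6309 such genes, 442 (7.01%) passed a limit of 2-fold upward in members in both libraries, and 565 (8.96%) passed it downward. Since every gene of these nuclei shares its source with the rule, these counts describe the group and support nothing beyond it. With TMM the counts were 320 higher and 967 lower.

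The fibroblast part of the name held against its markers, while the position of nuclei in the tissue was not measured, so the group is named by Bmper and Smoc2 alone. Of 15 fibroblast or progenitor markers, 10 had enough UMIs and all 10 were at least 2-fold higher in members of both libraries, with a median log2 ratio of 4.75 in 1cyc and 3.44 in TN. The median over all genes compared was -0.09 in 1cyc and -0.19 in TN. Pdgfra, the receptor that marks adipose fibroblasts, was at 407 CPM in members and 11.0 CPM in other barcodes of 1cyc, and at 448 CPM in members and 24.01 CPM in other barcodes of TN. Dcn, the matrix proteoglycan decorin, was at 1364 CPM in members and 50.7 CPM in other barcodes of 1cyc, and at 1277 CPM in members and 81.6 CPM in other barcodes of TN. The fibroblast list gave a median of 14 UMIs per 1cyc member and 12 per TN member, against 0 per other barcode in both libraries. Markers of some progenitor panels were scarce: Cd34 had 3 UMIs in 1cyc and 6 in TN members, and Ly6a, which encodes Sca-1, had 1 in 1cyc and 0 in TN members.

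Adipocyte markers were lower in members than in other barcodes, and markers of several other cell types had few UMIs. Single markers of pericytes and Schwann cells were higher. Of 18 adipocyte markers, 15 were at least 2-fold lower in both libraries and none higher, and the list summed to 2373 CPM in members and 18198 CPM in other barcodes of 1cyc, and to 2099 CPM in members and 11428 CPM in other barcodes of TN. Adipocyte transcripts were not absent: 7 members of 1cyc and 18 of TN had at least as many adipocyte UMIs as UMIs of the Bmper set. Endothelial markers summed to 301 CPM in 1cyc and 361 CPM in TN members, most of it Mecom. In other barcodes they summed to 543 CPM in 1cyc and 1247 CPM in TN. Of the 10 genes of this list, 4 (Ptprb, Flt1, Cyyr1 and Cdh5) belong to the member rule. The lower sum in members was thus partly set by their choice, and the remaining genes were not summed apart. Emcn and Egfl7 were at 0 UMIs in both, as were Ptprb and Cdh5, which the member rule itself kept low. The pericyte list was at 584 CPM in members and 173 CPM in other barcodes of 1cyc, and at 455 CPM in members and 307 CPM in other barcodes of TN. Pdgfrb, a receptor that fibroblasts also carry, was 12.4-fold higher in members of 1cyc and 5.19-fold in TN, while Rgs5, Abcc9 and Kcnj8 had 0 UMIs in 1cyc and at most 1 in TN. The Schwann or neural list was at 744 CPM in members and 168 CPM in other barcodes of 1cyc, and at 622 CPM in members and 202 CPM in other barcodes of TN, with 2 of 3 genes compared at least 2-fold higher. Its UMIs in members came mostly from Scn7a (32 and 58 UMIs in 1cyc and TN) and Cdh19 (10 and 28 UMIs in 1cyc and TN), with Sox10, S100b, Gfra3 and Ncmap at 0. Smooth muscle markers summed to 0 UMIs in 1cyc and 7 in TN members, macrophage markers to 4 in 1cyc and 17 in TN, and lymphocyte markers to 1 in 1cyc and 13 in TN. Lymphatic markers summed to 1 UMI in 1cyc and 6 in TN members, and mesothelial markers to 1 in each. These few UMIs do not show the lists to be lower than in other barcodes. In TN, lymphatic markers were at 40.1 CPM in members and 19.6 CPM in other barcodes. Smooth muscle markers were at 46.8 CPM in TN members and 39.2 CPM in other barcodes of TN.

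**Figure D2:**
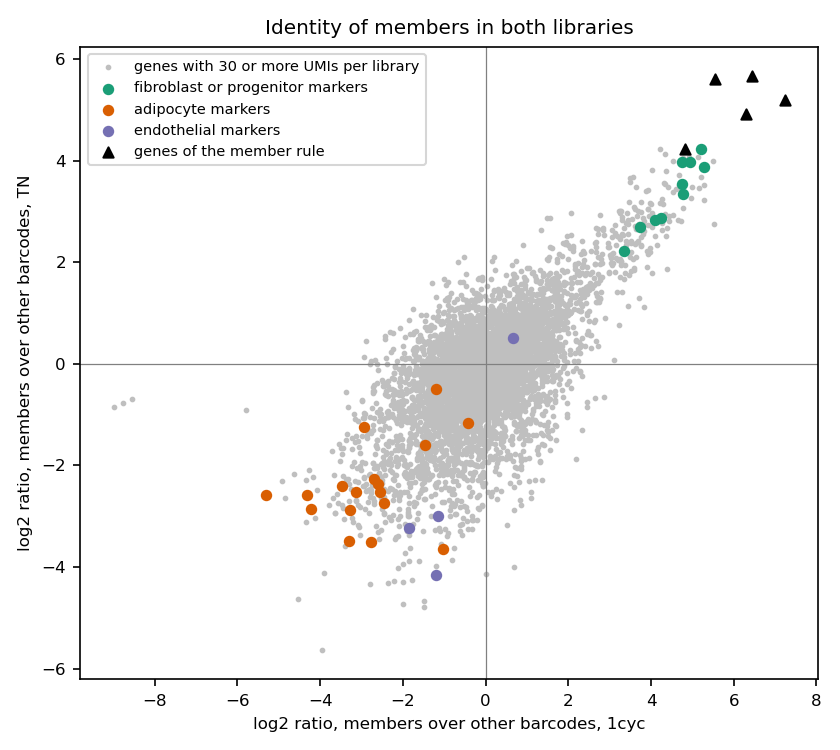
Log2 ratio of members over other barcodes in 1cyc (horizontal axis) and TN (vertical axis), 1 point per gene with at least 30 UMIs in each library; genes whose ratio is an uninformative bound are not drawn. Fibroblast markers (green) and the genes of the rule (black triangles) lie in the upper right corner, and most adipocyte markers (orange) lie in the lower left.

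The genes that stood highest in members beyond the rule included laminin and collagen chains, a BMP ligand and receptors. They were ranked by the lower bound of the ratio in the library where it was smaller. Thsd7a, a membrane protein with thrombospondin repeats, was 30.4-fold higher in members of 1cyc (20.6 to 44.8) and 16.7-fold in TN (13.8 to 20.2). Lama2, the laminin alpha chain of muscle and stromal basement membranes, was at 3117 CPM in members and 102 CPM in other barcodes of 1cyc, and at 2634 CPM in members and 169 CPM in other barcodes of TN. Bmp5, a BMP ligand, was 36.4-fold higher in 1cyc (19.9 to 67.3) and 18.8-fold in TN (12.5 to 28.5). The matrix genes among the next ranks were Col5a3, Col6a3 and Fap, a cell-surface serine protease of activated fibroblasts, at 14.2 to 45.2-fold over the libraries. Cp, the ferroxidase ceruloplasmin, was 35.2-fold higher in 1cyc and 16.7-fold in TN, with Colec12, a scavenger receptor, and the interferon-inducible Ifi207 at 15.99 to 27.3-fold. The ranks were completed by Pde11a, a phosphodiesterase of cyclic nucleotides, the transporter Abca8a, the RNA-binding Bicc1, the imprinted non-coding Meg3, Plxdc2, the kinase Dclk1, the adhesion protein Mdga2, Gli3, a transcription factor of Hedgehog signalling, and Chrm3, the M3 muscarinic acetylcholine receptor, which were 10.4 to 37.3-fold higher.

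The genes lowest in members included sarcomere genes and genes of lipid metabolism. Ttn and Myl1, sarcomere genes, had 0 and 1 UMIs in members of 1cyc and 3 and 2 in members of TN. Ttn stood at no more than 0.0642 times the other barcodes in 1cyc, where the 0 UMIs of members were set to a floor of 3 over the group, and at 0.0201 times in TN. Ppara, the nuclear receptor of fatty acid oxidation, was at 602 CPM in members and 5308 CPM in other barcodes of 1cyc, and at 568 CPM in members and 3285 CPM in other barcodes of TN. Pank1, which makes coenzyme A, Dgat2, which makes triglyceride, Erbb4, Palmd and Esrrg were at 0.0533 to 0.190 times the level of other barcodes over the libraries. Pparg, the master regulator of adipocyte formation, was lower in members too, at 956 CPM in members and 4285 CPM in other barcodes of 1cyc, and 943 CPM in members and 3377 CPM in other barcodes of TN.

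By function, the lists are set beside the 7.01% of all genes that were 2-fold higher in both libraries and the 8.96% that were lower. Of 17 fibrillar and other collagens, 8 of 13 compared were at least 2-fold higher in both libraries. For basement membrane it was 8 of 11, among them Lama2, Nid1 and Col4a1, and for matrix proteases and inhibitors 8 of 9, including Adamts12, Timp3 and Fap. In none of these 3 lists was a gene 2-fold lower. Of the proteoglycans and matricellular proteins, 3 of 8 compared were higher and 1 lower, of the IGF and WNT genes 5 of 9 were higher, and of the chemokines, cytokines and receptors 3 of 5. Of the cytokine receptors, Il1r1 was 39.1-fold higher in 1cyc and 9.34-fold in TN, Osmr, the oncostatin M receptor, 13.6-fold in 1cyc and 9.06-fold in TN, and Lifr 2.94-fold in 1cyc and 2.99-fold in TN. Among growth factors, Fgf10, a fibroblast growth factor that acts on preadipocytes, was 11.1-fold higher in 1cyc and 9.03-fold in TN, whereas Vegfa was at 0.0556 times the other barcodes in 1cyc and 0.214 times in TN. Of 17 adipogenic transcription factors compared, 3 were higher and 2 lower by this limit, against 7.01% higher and 8.96% lower over all genes. Ebf2, a factor of brown preadipocytes, was at 1682 CPM in members and 1246 CPM in other barcodes of 1cyc, and at 1651 CPM in members and 1060 CPM in other barcodes of TN.

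Members were also set against the adventitial fibroblasts, chosen by the mirrored rule on Pi16, Dpp4, Fbn1, Sema3c and Fndc1. Most general fibroblast markers did not pass the 2-fold limit in both libraries. Members differed in adhesion molecules such as Lsamp and Opcml and in Timp3 and Col14a1. The adventitial barcodes numbered 25 in 1cyc and 67 in TN. Of 663 genes with at least 20 UMIs in each library, 56 (8.45%) passed the 2-fold limit upward in members in both libraries and 69 (10.4%) passed it downward. Genes of the rules were kept in these counts, with all 5 of the Bmper set among those higher. Calls of rule genes were fixed by the choice of barcodes. Of 9 general fibroblast markers compared here, 1 was 2-fold higher in members in both libraries and 0 were lower in both. By the same limit 2 of 6 collagens were higher and 1 lower. Of basement membrane genes 4 of 8 were higher and 0 lower, and of matrix proteases and inhibitors 1 of 7 was higher and 1 lower. Collagens summed to 5720 CPM in members and 4977 CPM in adventitial barcodes of 1cyc. In TN they summed to 3891 CPM in members and 4366 CPM in adventitial barcodes. Pi16, a gene both rules use, had 0 UMIs in members of both libraries, and in the adventitial barcodes 16 UMIs in 1cyc and 46 in TN.

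Lsamp ranked highest and Opcml lowest by the ranking bound, and both encode adhesion proteins of the same family of neuronal cell surface molecules. Lsamp had 45 UMIs in members and 0 in adventitial barcodes of 1cyc, and 93 in members and 1 in adventitial barcodes of TN. In 1cyc it was at least 6.67-fold higher in members (floor of 3 UMIs over the group), and in TN 52.5-fold (9.20 to 2097). Opcml went the other way, at 53.1 CPM in members and 5614 CPM in adventitial barcodes of 1cyc, and at 241 CPM in members and 5324 CPM in adventitial barcodes of TN. Also higher in members in both libraries were Mdga2 and Sgip1, each with 0 UMIs in adventitial barcodes of 1cyc and 1 in those of TN, and Timp3, an inhibitor of matrix proteases that binds to the matrix. Timp3 was at 1417 CPM in members and 119 CPM in adventitial barcodes of 1cyc, and at 956 CPM in members and 177 CPM in adventitial barcodes of TN. The kinase gene Mast4 was 4.08-fold higher in 1cyc and 3.14-fold in TN, and Tcf4, a transcription factor, Pde11a, Eps8, Raph1 and Cp completed the highest 10. Col5a3 was at 1116 CPM in members and 199 CPM in adventitial barcodes of 1cyc, and at 541 CPM in members and 213 CPM in adventitial barcodes of TN.

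The genes lower in members than in adventitial barcodes included Creb5, a transcription factor, at 0.0387 times in 1cyc and 0.0544 times in TN. Col14a1, a collagen that binds to fibrils, was at 0.0356 times in 1cyc and 0.0290 times in TN, and Pcolce2, an enhancer of procollagen processing, at 0.0404 times in 1cyc and 0.0461 times in TN. Limch1, Sdk1, Gfpt2, Ptprj, Plce1 and Rcan2 completed the lowest 10, with upper bounds of the ratio no higher than 0.257. Zfp521, Fstl1 and Gpc6 were likewise lower in members, Zfp521 at 0.404 times in 1cyc and 0.351 times in TN. Libraries and sorting were the same for both kinds of fibroblast, and median depth was close, at 1181 UMIs in members and 1011 in adventitial barcodes of 1cyc, and 1214 in members and 1022 in adventitial barcodes of TN.

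Members made up 2.30% (1.69 to 3.04) of barcodes under the mitochondrial limit in 1cyc and 4.09% (3.35 to 4.95) in TN, a ratio of 0.561. Of all deposited barcodes, of which 2275 in 1cyc and 84 in TN were at or over that limit, they made up 1.09% in 1cyc and 3.96% in TN. Adventitial barcodes made up 1.22% in 1cyc and 2.72% in TN. Of both fibroblast kinds together, members were 65.3% (53.1 to 76.1) in 1cyc and 60.1% (52.3 to 67.6) in TN. The lower share in 1cyc moved with the depth limit of the deposited barcodes: among barcodes with at least 500 UMIs in both libraries it was 3.85% (2.79 to 5.17) in 1cyc and 4.09% (3.35 to 4.95) in TN, a ratio of 0.94. The part of this limit and of the mitochondrial limit in the shares was not tested.

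Between the libraries, most genes of the members stayed within a narrow range. Of 1168 genes with at least 30 UMIs over both member sums, 75.7% were within 1.5-fold. In 1cyc members, 38 (3.25%) passed the 2-fold limit upward against TN members and 48 (4.11%) downward. The median log2 ratio over these genes was 0.14, and ratios are read against it. With TMM scaling the median was -0.16, and 11 genes were higher and 83 lower. Scaled by the median of ratios, the median log2 ratio was -0.002, and 22 genes were higher and 63 lower. Without the haemoglobin-rich TN member the median was 0.05, and 32 genes were higher and 51 lower.

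The genes highest in 1cyc members by the lower bound of the ratio included a collagen, a small GTPase and a guidance receptor. Elp4, a subunit of the Elongator complex, had 27 UMIs in 16 of 47 nuclei in 1cyc and 20 UMIs in 18 of 101 nuclei in TN, a ratio of 3.58 (1.93 to 6.73). Col5a3, a chain of type V collagen, was at 1116 CPM in 1cyc (63 UMIs in 25 nuclei) and 541 CPM in TN (81 UMIs in 48 nuclei), a ratio of 2.06 (1.46 to 2.90), and at 0.726 (0.481 to 1.08) in other barcodes. Rhoj, a small GTPase known from endothelial cells, was at 1523 CPM in 1cyc and 762 CPM in TN, a ratio of 1.998 (1.49 to 2.67). With each member thinned to 400 UMIs, however, Rhoj was seen in 28.9% of 1cyc members and 29.7% of TN members. Nrp1, the co-receptor for semaphorins and VEGF, was at 655 CPM in 1cyc and 287 CPM in TN, a ratio of 2.28 (1.43 to 3.62). Its shares moved with the depth of thinning. At 400 UMIs Nrp1 was seen in 28.9% of 1cyc members and 8.91% of TN members, and at 300 UMIs in 14.9% and 13.9% of them.

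Some of these differences were as large outside the group. Acaca, the acetyl-CoA carboxylase of fatty acid synthesis, was at 691 CPM in 1cyc members and 321 CPM in TN members, a ratio of 2.15 (1.37 to 3.35). In other barcodes, which hold the adipocytes, Acaca was at 1915 CPM in 1cyc and 974 CPM in TN, a ratio of 1.96. Kpna1, an importin, had a ratio of 2.57 in members and 2.33 in other barcodes, and Rsrp1 2.01 in members and 1.98 in other barcodes. The adipocyte list, Acaca included, was at 2373 CPM in 1cyc members and 2099 CPM in TN members, a ratio of 1.13 (0.916 to 1.39). Acaca itself gave 39 of the 134 UMIs of this list in 1cyc members and 48 of the 314 in TN members. The part of other adipocyte transcripts in the Acaca difference was not tested. Snrk, Btaf1, Mcc, Cd2ap and Hdac7 completed the highest 12, at ratios of 2.37 to 2.80. Mcc, thinned to 400 UMIs per nucleus, was seen in 6.67% of 1cyc members and 7.92% of TN members. Scaled by TMM, all 12 stayed above 1, from 1.62 for Rhoj to 2.91 for Elp4.

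Among the genes lower in 1cyc members, F3 and Prkd1 were spread over many nuclei. F3 encodes tissue factor, which starts blood coagulation. It had 6 UMIs in 5 of 47 nuclei in 1cyc and 54 UMIs in 29 of 101 nuclei in TN, or 106 CPM and 361 CPM in 1cyc and TN members, a ratio of 0.294 (0.103 to 0.683). Every member was also thinned to 400 UMIs, which left out 2 members of 1cyc. F3 was then seen in 4.44% (0.543 to 15.1) of 1cyc members and 16.8% (10.1 to 25.6) of TN members, 2 intervals that overlap. Of other barcodes it was seen in 5.96% in 1cyc, where 724 shallower ones were left out, and 3.51% in TN, where 0 were. At 300 UMIs F3 was seen in 4.26% (0.520 to 14.5) of 1cyc members and 8.91% (4.16 to 16.2) of TN members, again with overlap. Without thinning it was seen in 10.6% of 1cyc members and 28.7% of TN members. Prkd1, protein kinase D1, had 7 UMIs in 7 nuclei in 1cyc and 68 UMIs in 44 nuclei in TN, a ratio of 0.273 (0.106 to 0.593), and 0.633 in other barcodes. Pik3r1, the regulatory subunit of phosphoinositide 3-kinase, was at 195 CPM in 1cyc and 495 CPM in TN, a ratio of 0.394 (0.188 to 0.746). Fbxw11, Elmo1, Hook3, Atf7ip, Trappc8 and Fut8 had ratios of 0.241 to 0.458, on 3 to 14 UMIs each in 1cyc, and Opcml had 3 UMIs in 1cyc against 36 in TN, a ratio of 0.221. TMM scaling lowered each of these ratios further.

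**Figure D3:**
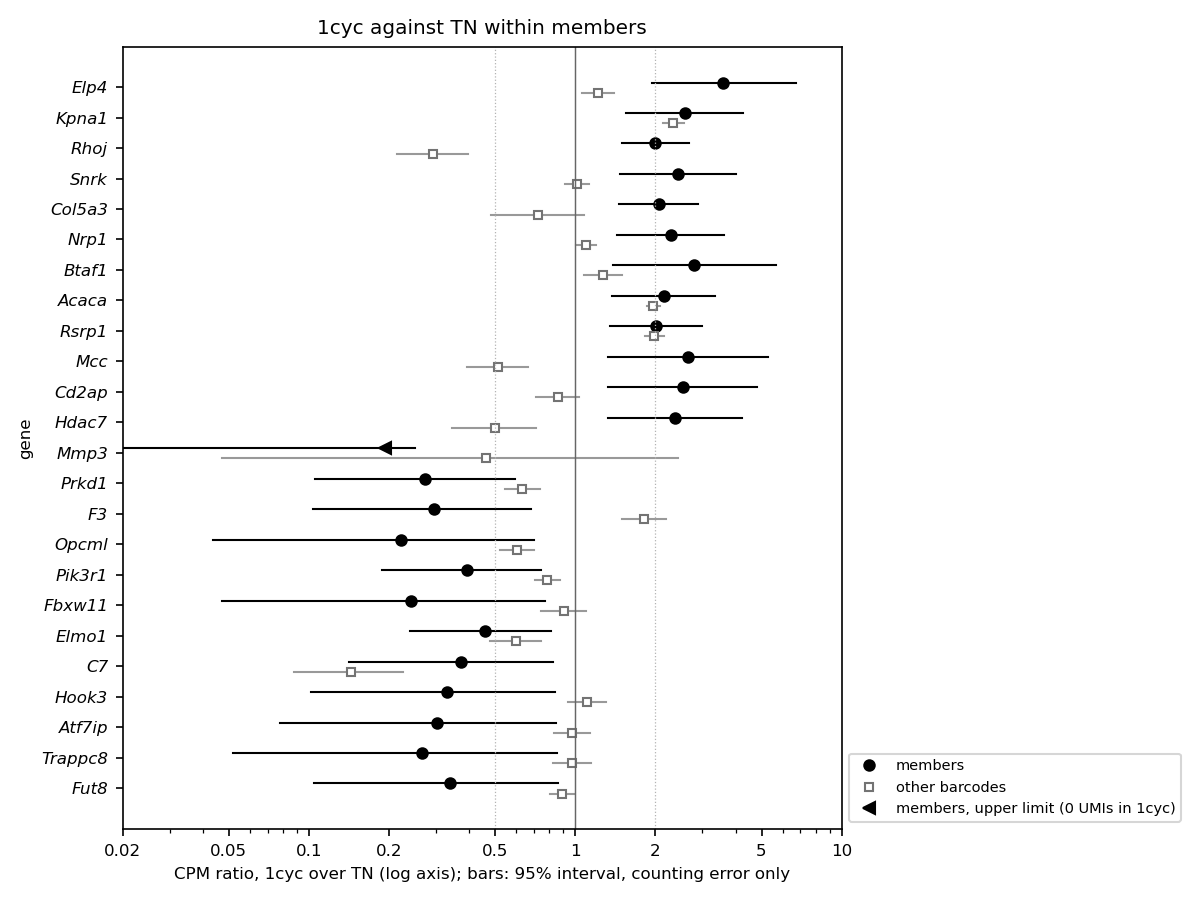
Ratio of 1cyc over TN on a log axis for the 12 highest and 12 lowest named genes in members (black) and in other barcodes (grey squares), with 95% intervals for counting error. Rhoj, Mcc and Hdac7 lie above 1 in members and below 1 in other barcodes, F3 lies below 1 in members and above 1 in other barcodes, and the triangle for Mmp3 is an upper limit from 0 UMIs in 1cyc.

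Mmp3, stromelysin 1, a protease that cleaves many matrix proteins, ranked lowest in 1cyc, and its difference rested on a single nucleus. It had 0 UMIs in 1cyc members and 41 in TN members, at least 5.16-fold lower in 1cyc with the floor of 3 UMIs over the group. Of the 41 UMIs, 39 came from 1 of 101 TN nuclei and the other 2 from 2 nuclei with 1 each. That nucleus had 2022 UMIs in all, 8 of the Bmper set and 32 of the fibroblast list. Without it, Mmp3 had 0 UMIs in 1cyc and 2 in TN, and no fold can be given. In other barcodes it had 2 UMIs in 1cyc and 7 in TN.

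C7, a late component of the complement cascade, was also uneven among members. It had 7 UMIs in 1cyc, all in 1 of 47 nuclei, and 50 UMIs in TN in 11 of 101 nuclei, with 15 in the highest of them. The sums were 124 CPM in 1cyc and 334 CPM in TN, a ratio of 0.371 (0.142 to 0.822). Without the top nucleus of each library, 0 UMIs were left in 1cyc and 35 in TN. At 400 UMIs per nucleus, C7 was seen in 2.22% of 1cyc members (0.0562 to 11.8) and 8.91% of TN members (4.16 to 16.2), 2 intervals that overlap. The same direction was seen outside the group. In other barcodes C7 was at 13.6 CPM in 1cyc and 94.4 CPM in TN, and in adventitial barcodes, where it was higher than in members, at 518 CPM in 1cyc and 1171 CPM in TN.

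Csmd1, a large membrane protein with complement control domains, was almost undetected in members. It had 1 UMI in 1cyc and 3 UMIs in TN members, or 17.7 CPM and 20.1 CPM in 1cyc and TN members, and other barcodes held more, at 31.2 CPM in 1cyc and 62.8 CPM in TN. Both member sums are at or under the floor of 3 UMIs, so no fold between 1cyc and TN can be given. At 400 UMIs per nucleus it was seen in 0 of 45 members in 1cyc, which allows a share of up to 6.67% (3 counts of 45), and in 0.990% of TN members.

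The promoters of the 3 uneven or lower genes are shown for their motifs, as the 250 bases before each start (RefSeq, GRCm38.p6), with matches to the AP-1 and TATA letters in capitals. Mmp3 is read at chr9:7445572-7445821 on the forward strand, F3 at chr3:121723287-121723536 on the forward strand, and C7 at chr15:5063774-5064023 on the reverse strand:

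Mmp3: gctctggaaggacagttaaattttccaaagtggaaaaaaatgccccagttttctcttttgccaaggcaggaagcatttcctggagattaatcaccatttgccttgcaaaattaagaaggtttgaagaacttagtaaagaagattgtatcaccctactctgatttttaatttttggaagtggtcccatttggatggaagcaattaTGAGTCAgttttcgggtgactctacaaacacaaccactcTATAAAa
F3: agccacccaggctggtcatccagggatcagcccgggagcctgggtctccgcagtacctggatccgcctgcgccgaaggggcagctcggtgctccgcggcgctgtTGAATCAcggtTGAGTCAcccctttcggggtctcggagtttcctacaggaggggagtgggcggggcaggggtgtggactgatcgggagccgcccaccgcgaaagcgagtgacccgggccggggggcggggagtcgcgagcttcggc
C7: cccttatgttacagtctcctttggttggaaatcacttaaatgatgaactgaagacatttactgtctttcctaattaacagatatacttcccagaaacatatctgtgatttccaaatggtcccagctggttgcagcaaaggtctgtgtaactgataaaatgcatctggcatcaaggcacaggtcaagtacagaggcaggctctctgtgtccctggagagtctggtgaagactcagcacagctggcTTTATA

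Mmp3 held 1 AP-1 match, whose first base lies 46 bases before the start, and 1 TATA match at 7 bases. F3 held 2 AP-1 matches, at 146 and 135 bases, and no TATA match. C7 held no AP-1 match and 1 TATA match, on the other strand at 6 bases. A match is a run of letters and not a measured binding site.

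**Figure D4:**
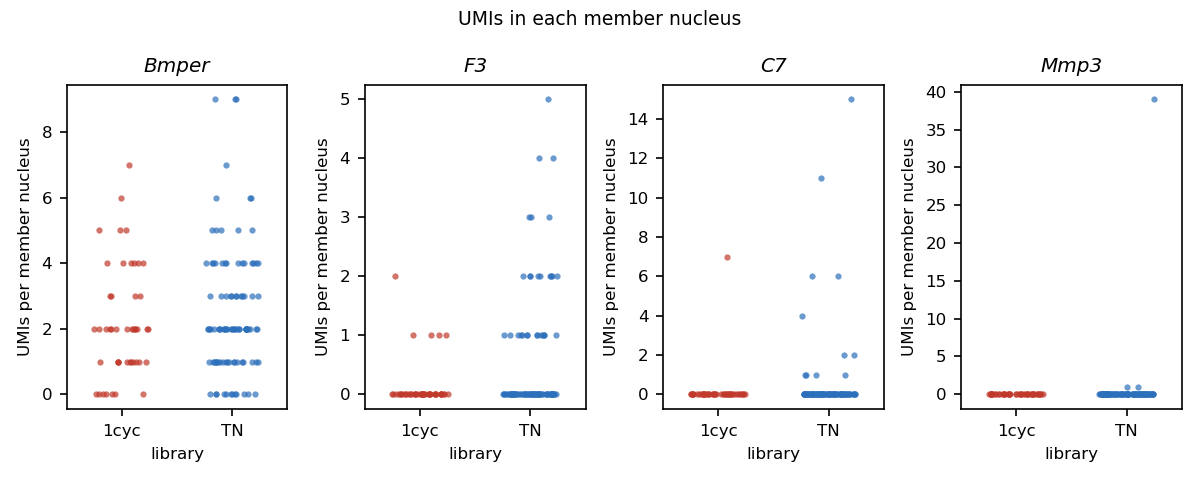
UMIs of Bmper, F3, C7 and Mmp3 in each member nucleus (points, spread sideways for sight) of 1cyc (red, left) and TN (blue, right). Bmper is spread over most nuclei of both libraries, F3 over 5 nuclei of 1cyc and 29 of TN, and nearly all Mmp3 UMIs lie in 1 TN nucleus.

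Read by pathway, few genes passed the 2-fold limit between the libraries. Of 85 genes of the 18 pathway lists with at least 30 UMIs, 2 were at least 2-fold higher in 1cyc members (Col5a3 and Nrp1) and 3 lower (Mmp3, C7 and Opcml), or 5 genes either way, while 7.36% of all measured genes passed the limit either way. Of 8 collagens measured, 7 had a ratio above 1 against 699 of 1168 genes in all, with a median log2 ratio of 0.45 against 0.14. Col1a2, a chain of type I collagen, was at 797 CPM in 1cyc and 501 CPM in TN, a ratio of 1.59 (1.07 to 2.33). Its lower bound falls below 1 with TMM scaling. Col3a1 was at 974 CPM in 1cyc and 689 CPM in TN, and Col6a3 at 815 CPM in 1cyc and 602 CPM in TN. Col6a6 was the exception, at 142 CPM in 1cyc and 174 CPM in TN. Summed over the list, collagens were at 5720 CPM in 1cyc and 3891 CPM in TN, a ratio of 1.47 (1.28 to 1.69), and of 1.20 (1.04 to 1.37) with TMM scaling.

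The summed levels of most other lists changed sides of 1 with TMM scaling. Basement membrane genes summed to a ratio of 1.16 (1.02 to 1.31), and to 0.94 with TMM scaling. Matrix proteases and inhibitors summed to 1.22 (1.07 to 1.38), and to 0.99 with TMM scaling. Within that list Adamts12, a metalloprotease, was at 1328 CPM in 1cyc and 796 CPM in TN, a ratio of 1.67 (1.23 to 2.25), and Timp3 had a ratio of 1.48 (1.11 to 1.96). With TMM scaling, which divides by 1.23, the lower bound of Timp3 falls below 1 and that of Adamts12 lies close to 1. The 5 proteoglycan and matricellular genes measured had a median log2 ratio of -0.29 but a summed ratio of 1.10 (0.911 to 1.32), or 0.893 with TMM scaling, with Tnxb at 230 CPM in 1cyc and 328 CPM in TN. The 4 glucocorticoid-responsive genes measured, Fkbp5, Zbtb16, Klf9 and Errfi1, each had a ratio of 1.28 to 1.36, with every interval including 1. Their summed list had a ratio of 1.33 (1.08 to 1.63), and of 1.08 with TMM scaling. Against 699 of 1168 genes above 1 in all, 5 of 6 neural adhesion genes measured had a ratio above 1, with a median log2 ratio of 0.49 and a summed ratio of 1.26 (1.04 to 1.52), or 1.02 with TMM scaling. The 4 guidance genes measured also had ratios above 1, with a median log2 ratio of 0.47 against 0.14 over all genes and a summed ratio of 1.14 (0.981 to 1.32), or 0.928 with TMM scaling. Both complement genes measured had a ratio below 1, with a summed ratio of 0.788 (0.528 to 1.15) over the list, or 0.641 (0.429 to 0.936) with TMM scaling.

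Of the BMP, TGF-beta and PDGF, FGF and VEGF lists, 4, 3 and 6 genes were measured, and 0 passed the 2-fold limit, which 7.36% of all genes passed. The BMP list summed to a ratio of 1.04, or 0.843 with TMM scaling, and the TGF-beta list to 1.01, or 0.824, all with intervals that include 1. The PDGF, FGF and VEGF list summed to 0.919 (0.759 to 1.11), and to 0.747 (0.617 to 0.901) with TMM scaling. Bmp5 was at 496 CPM in 1cyc and 354 CPM in TN members, a ratio of 1.40 (0.852 to 2.25). Tgfbr3, the co-receptor betaglycan, was at 584 CPM in 1cyc and 755 CPM in TN, a ratio of 0.774 (0.508 to 1.15). Fgf10 was at 230 CPM in 1cyc and 354 CPM in TN, and its receptor Fgfr1 at 213 CPM in 1cyc and 328 CPM in TN, at ratios of 0.65 with intervals that include 1. Pdgfra was at 407 CPM in 1cyc and 448 CPM in TN. Of 13 adipogenic transcription factors measured, 9 had a ratio above 1, against 699 of 1168 genes in all, with a median log2 ratio of 0.06, and the list summed to a ratio of 1.14 (1.06 to 1.23), or 0.927 with TMM scaling. Zeb1 was at 1452 CPM in 1cyc and 896 CPM in TN, a ratio of 1.62 (1.22 to 2.15), while Pparg, Ebf2 and Nfia had ratios of 1.01 to 1.04, below 1 with TMM scaling. The lower bound of Zeb1 also falls below 1 with that scaling. Cell cycle genes summed to 5 UMIs in 1cyc and 7 in TN, and heat shock genes to 3 UMIs in 1cyc and 10 in TN, too few for a fold per gene.

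**Figure D5:**
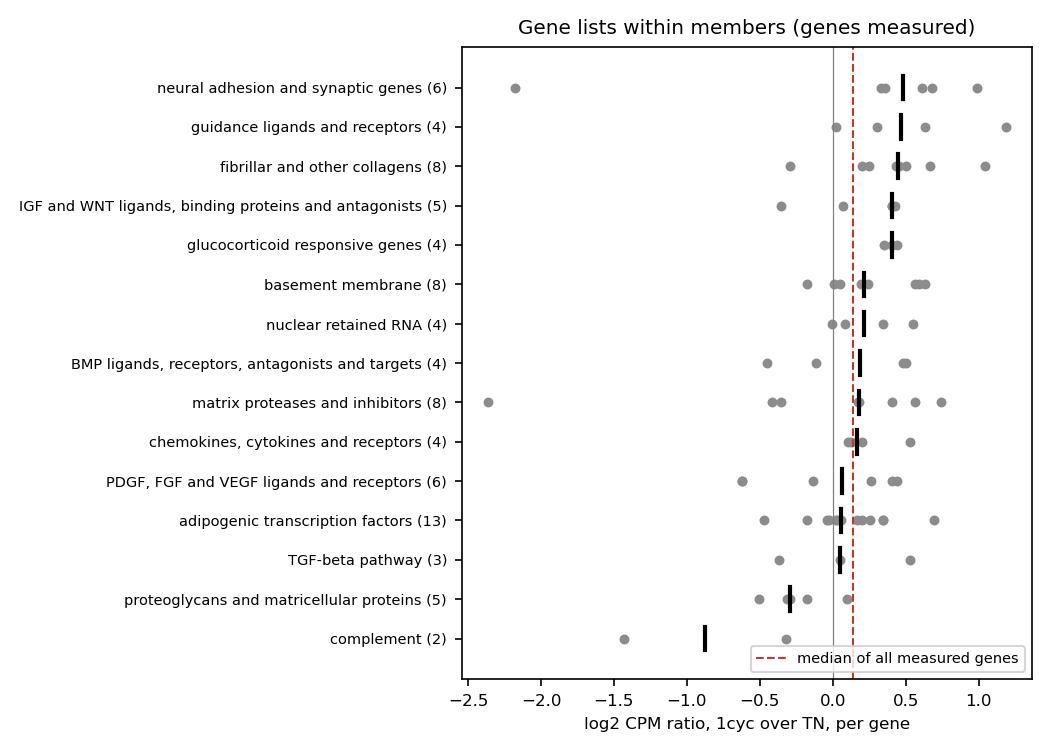
Log2 ratio of 1cyc over TN members for each gene (grey points) of the pathway lists, with the median of each list (black bar), the number of genes measured in brackets and the median of all measured genes (red dashed line, 0.14). The collagen median lies at 0.45, and the lowest points are Mmp3, drawn at its upper limit, and Opcml.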

How the data were processed

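Nuclei of mouse brown adipose tissue were profiled with 10X droplet libraries, 1 library per condition. The authors aligned reads to mm10 and, per the submitters' processing notes, used Cell Ranger 3 to count UMIs. Version 3.1.0 is named per the file headers. The deposited matrices hold raw UMI counts per gene and barcode. Neither the gene annotation nor the handling of introns is stated: they are not given in sources used here.

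Members were chosen by the rule in the text with numpy 2.4.6, scipy 1.17.1 and pandas 2.3.3, and figures were drawn with matplotlib 3.10.9. Members and gene lists were chosen with earlier results of these data known. UMIs were summed over barcodes of a group and library and divided by all UMIs of that sum to give CPM. Ratios of sums have exact conditional binomial intervals and shares have Clopper-Pearson intervals, both at 95%. A sum of 0 UMIs was set to 3 for a bound, and no ratio was formed where both sums were at or under 3. The ratio code was tested on simulated data. With 1 library per condition no test between conditions was possible, and 2-fold is a rule of size.

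Genes were named by rank of the interval bound nearest to 1. These were the 20 highest and 8 lowest against other barcodes, the 10 highest and 10 lowest against adventitial barcodes, and the 12 highest and 12 lowest between libraries. Genes of the member rule, gene models without a name, and genes for haemoglobin, ribosomal proteins or the mitochondrial genome were not ranked. C7, Mmp3, Csmd1, the genes of the rule and genes of 18 pathway lists were also named.

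Doublets were kept. As an alternative, Scrublet in scanpy 1.11.5 was used to remove them, but it marked 4 barcodes of 1cyc and 14 of TN, among them 2 members of 1cyc and 3 of TN, too few to count as a working doublet filter. Other alternatives were other mitochondrial, UMI and gene limits, each rule gene left out, the adipocyte list as a further criterion, and scaling by TMM (edgeR 4.0.16 in R 4.3.3), by the median of ratios or by totals without mitochondrially encoded, ribosomal protein and haemoglobin genes. Leaving out the haemoglobin-rich member, or the nucleus with the most UMIs of a gene, was added after seeing the data.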

Additional observations from a re-analysis of the deposited data

Results flagged for a closer look

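For 4 named genes the ratio of 1cyc over TN in members ran opposite to that in all other barcodes, with intervals on opposite sides of 1. The difference between the ratios was not tested, since each condition has 1 library. Rhoj had a ratio of 1.998 in members (1523 CPM in 1cyc and 762 CPM in TN) and 0.294 (0.213 to 0.397) in other barcodes (33.1 CPM in 1cyc and 113 CPM in TN). Of the Rhoj UMIs of other barcodes, 10 of 51 in 1cyc and 114 of 282 in TN lay in endothelial barcodes, which numbered 39 in 1cyc and 169 in TN, and their part in the opposite direction was not tested. Mcc had a ratio of 2.65 in members and 0.513 (0.393 to 0.663) in other barcodes. Of the Mcc UMIs of other barcodes, 37 of 79 in 1cyc and 158 of 250 in TN lay in endothelial barcodes, where Mcc was at 923 CPM in 1cyc and 649 CPM in TN. Hdac7, a histone deacetylase, had a ratio of 2.37 in members and 0.501 (0.346 to 0.713) in other barcodes. F3 had a ratio of 0.294 in members and 1.81 (1.495 to 2.19) in other barcodes. With each member thinned to 400 UMIs, Rhoj was seen in 28.9% of 1cyc members and 29.7% of TN members. At that depth Mcc was seen in 6.67% of 1cyc and 7.92% of TN members, and Hdac7 in 11.1% and 7.92%. At 300 UMIs Rhoj was seen in 25.5% of 1cyc and 22.8% of TN members, Mcc in 6.38% and 2.97%, and Hdac7 in 4.26% and 5.94%.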

How the results depend on the processing

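The ratios of the genes named by rank against other barcodes and between libraries, and of the member shares, did not cross 1 under the alternatives run. TMM divides each ratio of 1cyc over TN by 1.23, so genes of the rule and of the pathway lists with ratios between 1 and 1.23, such as Bmper and Pparg, fall below 1 with it. The summed ratios of 11 of 18 pathway lists did so under at least 1 of them, 10 with TMM, while those of collagens, glucocorticoid-responsive and immediate early genes did not. With at least 500 UMIs per barcode the ratio of member shares was 0.94, and it lay between 0.474 and 0.753 under the others. Between libraries, the count of genes past 2-fold upward was 24 with at least 5 UMIs of the Bmper set, 23 without Col15a1 in the rule, 11 with TMM and 22 with the median of ratios, and the count downward was 23 at a mitochondrial limit of 5% and 83 with TMM. A minimum of 100 UMIs per gene, which leaves fewer genes, gave 3 upward and 4 downward, and no minimum gave 681 and 592. Of the pathway genes, upward counts were 4 at a mitochondrial limit of 10%, 5 without Bmper in the rule, and 0 with TMM. They were 1 each without Smoc2, Col15a1 or Ccbe1, with the adipocyte criterion, with reduced totals, with the median of ratios, at 100 UMIs per gene and without the haemoglobin-rich member, and 15 with no minimum. Downward counts of pathway genes were 5 without Smoc2, 1 without Ccbe1, 0 at 100 UMIs and 13 with no minimum. Against other barcodes, 967 genes were lower with TMM, and 146 were higher at 100 UMIs and 1022 with no minimum. Thinned to 300 UMIs, C7 was seen in 3.96% of TN members. Where fewer or more genes were not the reason by construction, the cause was not tested. The alternatives that left out the haemoglobin-rich member or a top nucleus were chosen after seeing the data. No paired analysis was possible because each condition has 1 library, and for the same reason no replicate could be left out. Depth limits single genes: at 30 UMIs over both sums a ratio has a wide counting interval.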

Other observations

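Among TN members, C7 and Opcml, genes that were higher in adventitial barcodes than in members, were often found in the same nuclei. Opcml was seen in 6 of 11 members with C7 and in 7 of 90 without it. In 1cyc, the 1 member with C7 also held Opcml, against 1 of 46 without C7. The pair was picked from a larger set of gene pairs after their values were seen, and it was not tested. Vcam1, an adhesion molecule for leukocytes, had 5 UMIs in 4 nuclei of 1cyc and 36 UMIs in 2 nuclei of TN, of which 28 lay in 1 nucleus and 8 in the other. It was singled out after its values were seen. Immediate early genes, which respond fast to stimuli and to handling of tissue, summed to 35 UMIs in 1cyc members and 56 in TN members, a ratio of 1.66 (1.05 to 2.57), and of 1.35 (0.856 to 2.09) with TMM scaling.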
